A study of Mus musculus with 6 samples.

Results

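The genes that carry the cyclic AMP (cAMP) signal were compared between MA-10 cells and STARKO1 cells. They were chosen by a rule on gene symbols, with earlier results of these data known. They comprise the luteinizing hormone receptor (Lhcgr), inhibitory G protein subunits (Gnai), adenylyl cyclases (Adcy), subunits and an inhibitor of protein kinase A (PKA, with the symbols Prkac, Prkar and Pki), A-kinase anchoring proteins (Akap), phosphodiesterases (Pde), the exchange factors EPAC1 and EPAC2 (Rapgef3, Rapgef4), and the CREB-type transcription factors with their CRTC coactivators. Of the 14774 genes in the deposited table, 42 met this rule. MA-10 is a mouse tumor Leydig cell line and was sequenced as untreated, wild-type cells (3 libraries). STARKO1 is a single clone of MA-10 cells, also untreated, in which CRISPR/Cas9 cutting of Star had left a frameshift (3 libraries). Because the knockout is represented by 1 clone, loss of STAR and other properties of that clone cannot be told apart. The labels do not say whether the libraries of a cell line came from separate cultures, so the p values measure the spread between these libraries, which may be technical. No library came from cells stimulated with hormone or with a cAMP analog.

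In Leydig cells, luteinizing hormone binds LHCGR, the stimulatory G protein activates adenylyl cyclase, and cAMP is formed from ATP. cAMP binds the regulatory subunits of PKA and frees the catalytic subunits, which phosphorylate CREB and other proteins and drive both the transcription of Star and the activity of STAR protein. Anchoring proteins hold PKA at membranes and organelles, phosphodiesterases break cAMP down, inhibitory G protein subunits restrain the cyclases, and the EPAC proteins pass the cAMP signal to small GTPases without PKA.

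CREB and CREM bind the cAMP-response element, a palindrome of the letters TGACGTCA. A part of it, TGACGT, was taken as the shorter form, and still shorter parts were not searched. Both strings were searched on both strands of RefSeq promoter windows (build GRCm38.p6), each running from 250 bases before to 50 bases after an annotated start site, and every match to the palindrome is also a match to the shorter form. Windows were found for 36 of the 42 genes (63 windows) and not for Akap12, Akap2, Crem, Crtc2, Gnai2 and Pde7a. The palindrome occurred in 2 of the 63 windows (3.17%), which overlap and belong to Prkar1a, and in 1.79% of all 32851 windows. The shorter form occurred in 6 of the 63 windows (9.52%) and in 7.51% of all windows. The matches are printed because they are the pathway's own response element, or a part of it, in its own genes. They are given as 30 bases each, 5′ to 3′ on the gene's strand, with the match in capitals (TGACGTCA, or TGACGT, or its reverse complement ACGTCA).
Prkar1a, chr11:109650889-109650918, plus strand: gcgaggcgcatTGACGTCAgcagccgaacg
Adcy9, chr16:4420505-4420534, minus strand: cggacccggcggTGACGTgcgcgggccgcg
Akap11, chr14:78537065-78537094, minus strand: gaagcgcgcaagACGTCAgccgagagttcg
Pde4a, chr9:21184038-21184067, plus strand: tggcacagctcgACGTCAggctggggagga
Rapgef3, chr15:97767840-97767869, minus strand: gcttgaacccacTGACGTagtctcgggtag
The match began 49 bases before 1 start site of Prkar1a, and 24, 222, 51 and 191 bases before those of Adcy9, Akap11, Pde4a and Rapgef3. Prkar1a was the gene with the highest mean level per length of the 42 in both cell lines, while Rapgef3 was close to the limit of detection. These matches are letters in a window, and binding was not measured.

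Library totals lay between 14114349 and 19530054 counts, so that 3 counts, taken as the lowest level that could be shown, corresponded to between 0.129 and 0.264 CPM, the count per library size after TMM scaling. Star itself had 60.9, 109 and 61.4 CPM in replicates 1, 2 and 3 of MA-10 and 2.06, 2.71 and 2.02 CPM in the STARKO1 replicates, which gave a log2 fold change of -5.09 with a standard error (SE) of 0.331. The adjusted p was 0.00121 in the quasi-likelihood test of edgeR. MA-10 replicate 1 stood apart from the other MA-10 libraries. The 7SL RNA took 1.81% of its counts, against 14.4% and 6.63% in MA-10 replicates 2 and 3 and 1.82% to 2.37% in STARKO1 cells. The Leydig identity of the cells was checked with 12 marker genes, all in the table. Their summed level was 2205 to 2864 CPM in MA-10 and 1794 to 1870.1 CPM in STARKO1 libraries. Besides Star, only the steroid dehydrogenase Hsd3b1 passed edgeR's test, lower in STARKO1 cells. The Leydig sum was mostly Cyp11a1, Hsd3b6 and Nr5a1, with log2 fold changes of -0.93, -0.93 and 0.42. None of these passed that test (adjusted p = 0.067, 0.0568 and 0.189), and Cyp17a1 did not either (log2 fold change 1.27, adjusted p = 0.0949). Among markers of other testis cells, 5 of 10 Sertoli genes were in the table (693 to 778 CPM summed in MA-10, 805 to 839 CPM in STARKO1, with Inhbb higher), 3 of 7 peritubular myoid genes (38.6 to 45.8 and 32.6 to 36.5 CPM, with Des lower), 2 of 7 endothelial genes (26.4 to 41.5 and 118 to 124 CPM, with Cdh5 higher), 3 of 8 macrophage genes (5.38 to 10.1 and 6.66 to 8.69 CPM) and 1 of 8 germ cell genes (2.20 to 3.55 and 1.91 to 2.83 CPM). The endothelial sum was nearly all Cdh5. The other endothelial gene, Pecam1, had 0.173 to 0.744 CPM in MA-10 and 0.618 to 0.86 CPM in STARKO1 cells. Pecam1 did not pass edgeR's test (adjusted p = 0.336). The Sertoli sum was mostly Rhox5 and Clu, with log2 fold changes of 0.52 and -0.43. Neither passed that test (adjusted p = 0.153 and 0.163). The defining markers Sox9, Amh, Ptprc, Adgre1 and Kdr were sought but had no entry in the deposited table. That table lists no gene with fewer than 10 counts in total. The part of these markers in the results below was not tested. In RNA from whole cultures, fewer cells that express a gene and less RNA per cell cannot be told apart.

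Of the cAMP pathway genes, 3 changed between the cell lines and 34 did not pass the test. Crtc1, a coactivator of CREB, rose 3.07-fold in STARKO1 cells, and Akap8l, a nuclear relative of the anchor AKAP8, and Crem, a CREB relative that includes repressor forms, fell to levels 2.32-fold and 3.16-fold below those of MA-10 cells. Of the 42 genes, 37 passed the filter on low counts, and the 3 that passed an adjusted p of 0.05 (edgeR's quasi-likelihood test) were 8.11% of them, close to the 9.04% of all 11939 genes tested. The 1 higher gene was 2.70% of the tested pathway genes (4.30% of all genes were higher) and the 2 lower genes were 5.41% (4.74% of all genes were lower). At an unadjusted p under 0.05, 17 of the 37 differed (45.9%), against 37.6% of all genes. Of these, 7 were higher in STARKO1 cells (18.9% of the 37, against 15.0% of all genes) and 10 lower (27.0%, against 22.7%). For 20 of the 37 (54.1%) the libraries of the cell lines did not overlap, against 42.5% of all genes, with STARKO1 above in 9 (24.3%, against 21.5%) and below in 11 (29.7%, against 21.0%). Both held for 16 of the 37 (43.2%), against 31.7% of all genes, and 15 of the 37 (40.5%) had a log2 fold change above 0, against 47.1% of all genes. The median log2 fold change was -0.17 over the 37 genes and -0.05 over all genes tested. Scaling by library size alone moved the median of all genes by 0.43 on the log2 scale and turned the sign for 11 of the 37, namely Akap2, Akap10, Akap13, Akap17b, Creb1, Crtc3, Gnai3, Pde8b, Pkig, Prkaca and Prkar2a, none of which passed the test.

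**Figure D1:**
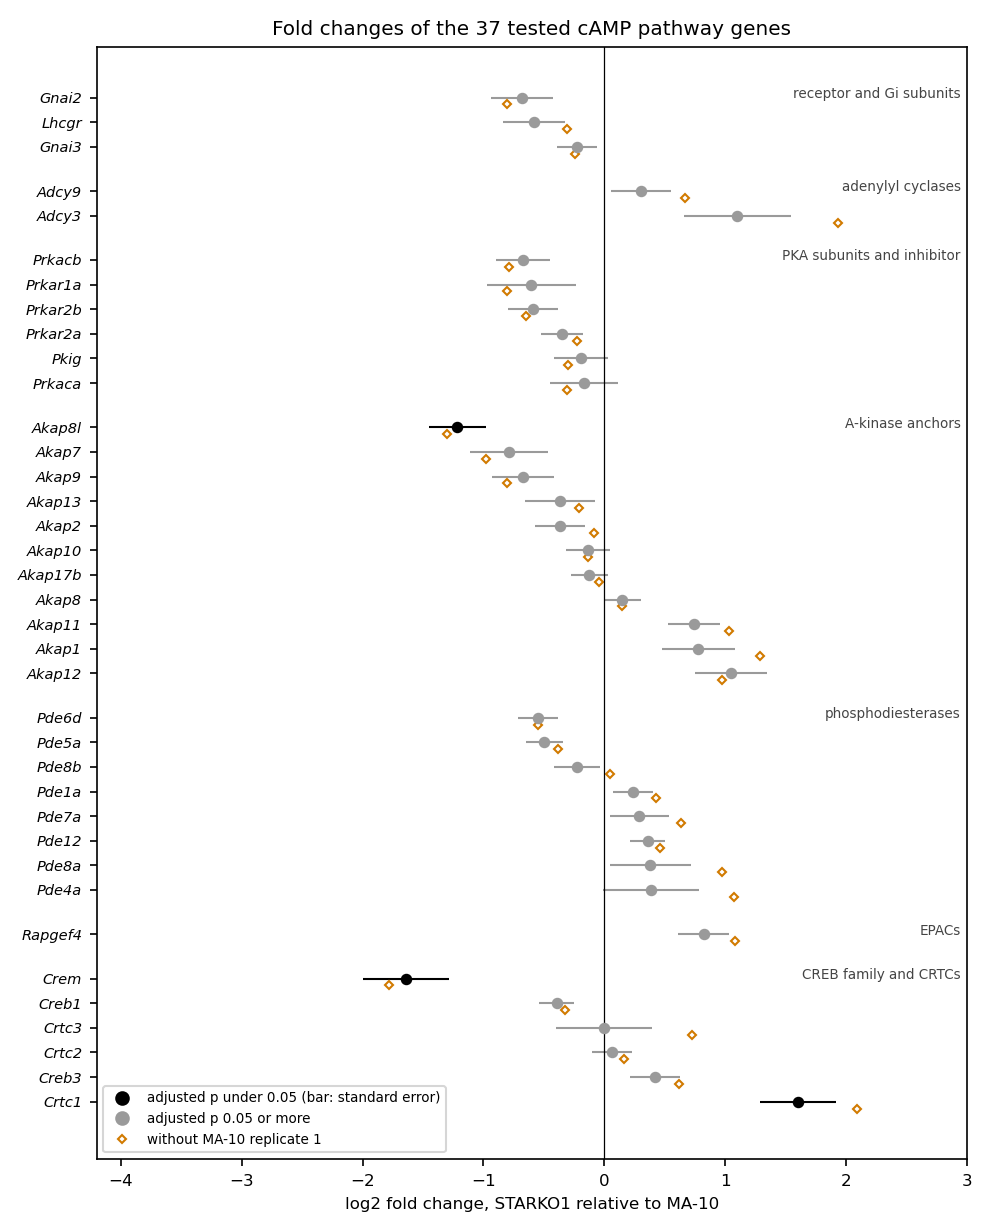
Log2 fold change of each of the 37 tested cAMP pathway genes in STARKO1 relative to MA-10 cells (x axis), grouped by role, with standard errors as bars and the estimates without MA-10 replicate 1 as orange diamonds. Only Crtc1, Akap8l and Crem are drawn in black (adjusted p under 0.05), and the median of the 37 is -0.17.

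The calls depended on which MA-10 libraries were used. For 23 of the 37 genes (62.2%), MA-10 replicate 1 was the MA-10 library nearest to the STARKO1 mean, against 64.0% of all genes tested. Without MA-10 replicate 1, 26 of 38 pathway genes passed the threshold, which was 68.4%, against 65.7% of all 12167 genes then tested. Besides Crtc1, Akap8l and Crem these were Adcy3, Adcy9, Akap1, Akap7, Akap9, Akap11, Akap12, Creb1, Creb3, Crtc3, Gnai2, Pde12, Pde1a, Pde4a, Pde5a, Pde6d, Pde7a, Pde8a, Prkacb, Prkar1a, Prkar2b, Rapgef3 and Rapgef4. Without MA-10 replicate 2 or 3, or without any 1 STARKO1 replicate, 0 of the 37 or 38 genes passed in edgeR's test, and between 6 and 14 of them had an unadjusted p under 0.05. Of all genes, 4.19% and 1.49% passed without MA-10 replicates 2 and 3, and 0.730%, 1.11% and 0.760% without STARKO1 replicates 1, 2 and 3. DESeq2 with all 6 libraries called 10 of the 37 (27.0%), against 28.5% of all genes. Upper-quartile scaling, no filter on low counts and a minimum of 10 counts in every library each called 3 pathway genes, against 6.94%, 6.41% and 6.44% of all genes, gene length offsets called 5 (13.5%, against 1195 of all 11939 genes), and library-size scaling called 1, Akap12, against 2.76% of all genes. With the replicate number as a block, edgeR called 0 of the 37 (11 at an unadjusted p under 0.05), against 1.96% of all genes, and with length offsets and that block also 0 (12 unadjusted), against 2.04%.

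The receptor and the inhibitory G protein subunits were examined first, as the entry of the pathway. Lhcgr, the receptor for luteinizing hormone, was low in both cell lines, with 82, 45 and 33 counts in replicates 1, 2 and 3 of MA-10, or 4.70, 3.90 and 2.91 CPM. The STARKO1 replicates had 64, 43 and 43 counts, or 2.75, 2.53 and 2.42 CPM. The STARKO1 libraries lay just under the lowest MA-10 library, and the log2 fold change of -0.58 (SE 0.255, adjusted p = 0.144) did not pass the threshold. Gnai2, an inhibitory alpha subunit, had the highest mean level of this group per length, with 163, 309.5 and 245 CPM in MA-10 and 149, 159 and 140.1 CPM in STARKO1 cells. MA-10 replicate 1 was again nearly level with the STARKO1 libraries (log2 fold change -0.68, adjusted p = 0.107). Gnai2 had values that were not whole in 5 libraries, and Gm19721 overlaps it on the same strand. Gnai3, a second subunit of this kind, had log2 fold change -0.22 (adjusted p = 0.343). Within each library, Gnai2 made up 53.3%, 63.2% and 57.1% of the summed Gnai2 and Gnai3 level per kb of exon in replicates 1, 2 and 3 of MA-10 and 49.7% to 51.9% in STARKO1 cells, so each subunit supplied roughly equal shares in STARKO1 cells.

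Of the adenylyl cyclases, which make cAMP, 3 were in the table. Adcy9, a widely expressed cyclase, was the main one and had 99.8, 53.0 and 68.6 CPM in replicates 1, 2 and 3 of MA-10 and 92.6, 96.1 and 84.4 CPM in the STARKO1 replicates. The cell lines overlapped (log2 fold change 0.30, SE 0.247, adjusted p = 0.386), and without MA-10 replicate 1 Adcy9 passed at 0.67 (adjusted p = 0.00477). Adcy3, a cyclase also known from olfactory neurons and primary cilia, had 38.5, 13.1 and 12.7 CPM in MA-10 and 41.3, 49.6 and 47.9 CPM in STARKO1 cells. MA-10 replicate 1 was near the STARKO1 libraries and the other MA-10 libraries were far below them. The log2 fold change of Adcy3 was 1.10 (SE 0.443, adjusted p = 0.121), and without MA-10 replicate 1 it was 1.93. Cenpo, which overlaps Adcy3 on the opposite strand, is counted separately in the table. As a share of the cyclase level per kb of exon, Adcy3 made up 24.3%, 17.1% and 13.3% in MA-10 and 27.0% to 32.0% in STARKO1 cells. Adcy7 had 1, 0 and 0 counts in MA-10 and 7, 4 and 5 counts in STARKO1 cells and was removed by the filter on low counts. Its STARKO1 mean of 0.273 CPM was 1.17-fold the mean MA-10 floor of 3 counts (0.232 CPM). STARKO1 replicate 2, at 0.236 CPM, lay under the floors of MA-10 replicates 2 and 3 (0.26 and 0.264 CPM), so no least fold is given. Without the filter Adcy7 did not pass edgeR's test (adjusted p = 0.0686).

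The PKA subunits included the most abundant genes of the pathway per length. Prkar1a, the type I regulatory subunit that keeps PKA inactive in the absence of cAMP, had 581, 1599 and 1009.8 CPM in replicates 1, 2 and 3 of MA-10 and 687, 699.8 and 712 CPM in the STARKO1 replicates. The STARKO1 libraries were close to each other and lay inside the wide MA-10 range (log2 fold change -0.60, SE 0.369, adjusted p = 0.259, and -0.80 with adjusted p = 0.00433 without MA-10 replicate 1). Prkar2b, a type II regulatory subunit, had 207, 275 and 312 CPM in MA-10 and 168, 180.4 and 180 CPM in STARKO1 cells. All STARKO1 libraries were below all MA-10 libraries, and the log2 fold change was -0.59 (SE 0.204, adjusted p = 0.0916). Prkar2a, the other type II subunit, had log2 fold change -0.35 (adjusted p = 0.182). Per kb of exon, Prkar1a made up 72.5% ± 7.88 (SD, n = 3) of the regulatory subunits in MA-10 cells and 73.7% ± 0.662 (SD, n = 3) in STARKO1 cells, and Prkar2b made up 23.3% ± 5.97 and 21.9% ± 0.421, differences smaller than the spread of the MA-10 libraries.

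The catalytic subunits, which carry the kinase activity, were described in the same way. Prkaca had 129, 279 and 195 CPM in replicates 1, 2 and 3 of MA-10 and 181, 181 and 175 CPM in the STARKO1 replicates, with overlap (log2 fold change -0.17, adjusted p = 0.679, and of the opposite sign under upper-quartile and library-size scaling). Prkacb had 78.4, 129 and 128 CPM in MA-10 and 71.6, 71.9 and 66.8 CPM in STARKO1 cells. The STARKO1 libraries were lower without overlap, but the test was not passed (log2 fold change -0.67, SE 0.225, adjusted p = 0.0851). Per kb of exon, Prkaca took 85.3%, 88.4% and 84.2% of the catalytic level in MA-10 and 89.9%, 89.9% and 90.2% in STARKO1 cells. A ratio of subunits within a library does not depend on how libraries are scaled. The ratio of the summed regulatory to the summed catalytic level per kb of exon was 3.34, 3.59 and 3.59 in the MA-10 libraries (replicates 1 to 3) and 2.64, 2.73 and 2.88 in those of STARKO1, that is 3.51 ± 0.140 and 2.75 ± 0.121 (SD, n = 3 each). Here MA-10 replicate 1 lay with the other MA-10 libraries, and the cell lines did not overlap. This ratio was chosen after its values were seen and is given without a test. Values were not whole in 6 libraries for Prkar1a, 5 for Prkar2b and 3 for Prkacb, so these genes may share reads with others. With offsets for gene length, the log2 fold changes of Prkar1a and Prkar2b were -0.62 and -0.55, and those of the catalytic subunit genes Prkaca and Prkacb were 0.05 and -0.75. Pkig, which encodes a peptide inhibitor of the free catalytic subunit, overlapped between the cell lines (log2 fold change -0.19, adjusted p = 0.540).

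**Figure D2:**
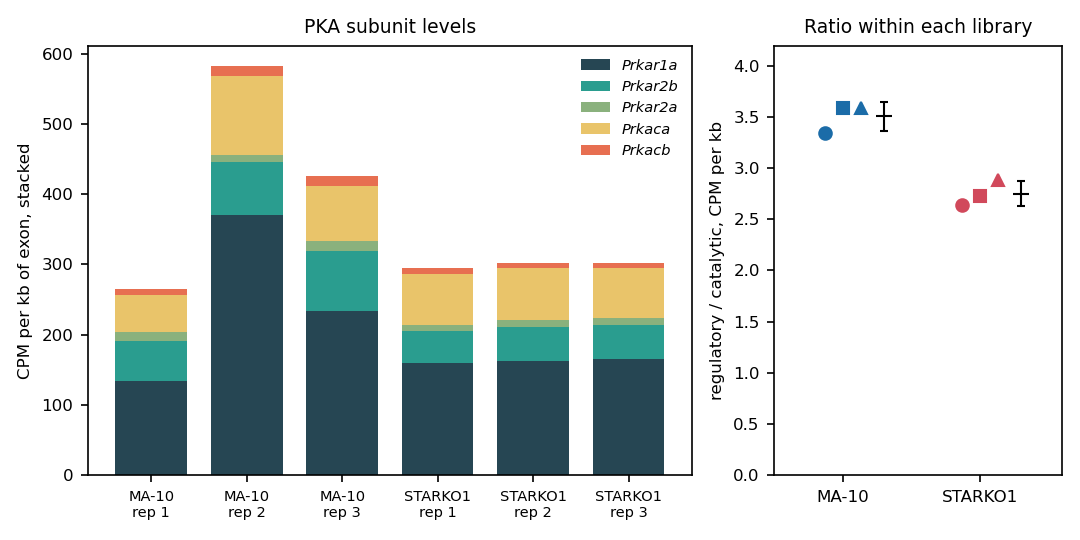
Left, level of each PKA subunit gene in each library, stacked, in CPM per kb of exon (y axis). Right, ratio of regulatory to catalytic subunit level within each library (circle, square and triangle for replicates 1, 2 and 3, dash and bar for mean and SD): the MA-10 libraries lie between 3.34 and 3.59 and the STARKO1 libraries between 2.64 and 2.88.

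Among the A-kinase anchors, 12 genes were in the table and 11 were tested, of which 1 fell, 0 rose and 10 did not pass the threshold in edgeR's test. At an unadjusted p under 0.05 there were 6 of the 11, against 37.6% of all genes, and DESeq2 called 3 of the 11, Akap11, Akap12 and Akap8l, against 28.5% of all genes. Akap8l (chromosome 17 of GRCm38, 32321424 to 32350608, minus strand), a nuclear protein related to AKAP8, had 35.7, 44.2 and 63.7 CPM in replicates 1, 2 and 3 of MA-10 and 19.3, 22.2 and 20.4 CPM in the STARKO1 replicates. Every STARKO1 library was below every MA-10 library. Its log2 fold change was -1.21 (SE 0.238, adjusted p = 0.0314). Akap8 itself, which anchors PKA in the nucleus, is the neighboring gene on the same strand (32303672 to 32321239), about 184 bases away. It had 65.0, 77.5 and 80.5 CPM in MA-10 and 82.1, 84.7 and 80.7 CPM in STARKO1 cells, a log2 fold change of 0.15 (adjusted p = 0.481). The ratio of Akap8 to Akap8l CPM within a library was thus 1.82, 1.75 and 1.26 in MA-10 and 4.26, 3.82 and 3.96 in STARKO1 cells, a value also chosen after it was seen.

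Other anchors were higher or lower in STARKO1 libraries without passing the test. Akap1, which tethers PKA to the outer mitochondrial membrane, had the highest mean level of the anchors per length, with 78.7, 37.6 and 40.6 CPM in replicates 1, 2 and 3 of MA-10 and 89.6, 84.0 and 96.0 CPM in the STARKO1 replicates. MA-10 replicate 1 was again nearest (log2 fold change 0.78, SE 0.301, adjusted p = 0.113, and 1.29 without that library). Akap11, a large anchor that also binds glycogen synthase kinase, had 60.8, 35.7 and 48.3 CPM in MA-10 and 81.9, 82.0 and 78.5 CPM in STARKO1 cells. The difference on the log2 scale was 0.74 (SE 0.215, adjusted p = 0.0678), and it passed the threshold with gene length offsets (adjusted p = 0.0454). Akap12, also called gravin, a scaffold at the plasma membrane, was rare, with 1.09, 1.91 and 1.23 CPM in MA-10 and 3.10, 2.83 and 2.75 CPM in STARKO1 cells. Here MA-10 replicate 1 was the farthest from STARKO1 cells (log2 fold change 1.05, adjusted p = 0.0655). Akap9, a very long anchor of the Golgi and centrosome, had 158, 239 and 301 CPM in MA-10 and 148, 153 and 135 CPM in STARKO1 cells. The STARKO1 libraries were below the MA-10 libraries, with MA-10 replicate 1 close to them (log2 fold change -0.67, adjusted p = 0.109). Cyp51 overlaps Akap9 on the opposite strand, and the counting program's strand setting is not given in the sources used here.

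The remaining anchors did not pass the test. The log2 fold change was -0.79 for Akap7 (adjusted p = 0.126, and 0.000951 without MA-10 replicate 1), whose cell lines overlapped, and lay between -0.37 and -0.12 for Akap2, Akap13, Akap10 and Akap17b, with adjusted p values between 0.223 and 0.611. Akap2 had values that were not whole in all 6 libraries and shares its locus with Pakap, so that its level is uncertain. Akap5 had at most 5 counts in any library, was removed by the filter and did not pass without it (adjusted p = 0.850). Although single anchors differed, their summed level per kb of exon was 71.3, 69.1 and 75.6 CPM per kb in replicates 1, 2 and 3 of MA-10 and 68.4 to 69.2 CPM per kb in STARKO1 cells. Akap1 was 25.1%, 12.4% and 12.2% of this sum in MA-10 and 27.7% to 31.9% in STARKO1 cells, and Akap8l was 9.87%, 12.6% and 16.6% in MA-10 and 5.49% to 6.33% in STARKO1 cells.

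**Figure D3:**
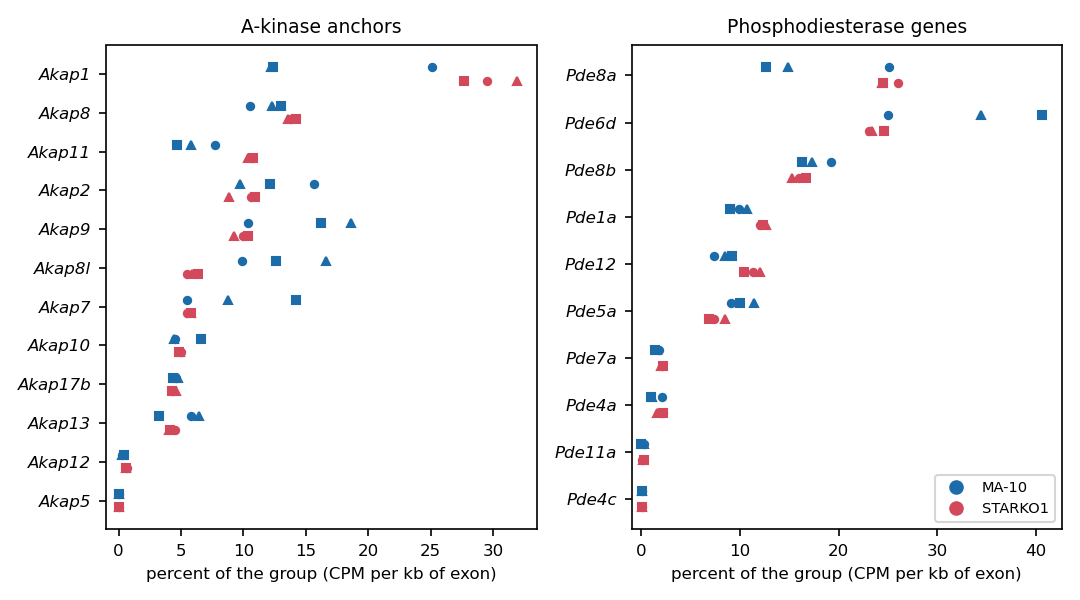
Share of each gene in the summed level per kb of exon of the 12 anchor genes (left) and the 10 phosphodiesterase genes (right), in percent (x axis), with circle, square and triangle for replicates 1, 2 and 3 of MA-10 (blue) and STARKO1 (red). Akap8l lies lower in all STARKO1 libraries (5.49% to 6.33%) than in MA-10 libraries (9.87% to 16.6%), and Pde8a and Pde8b are prominent in both cell lines.

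Phosphodiesterase genes numbered 10, of which 8 were tested and 0 passed the threshold in edgeR's test. Of the 8, 3 had an unadjusted p under 0.05, against 37.6% of all genes, and DESeq2 called 2, Pde5a and Pde6d, against 28.5%. Those that hydrolyse cAMP were led by Pde8a and Pde8b, which encode high-affinity cAMP-specific enzymes known to restrain steroidogenesis in Leydig cells. Pde8a had a log2 fold change of 0.38 (adjusted p = 0.419) and Pde8b of -0.22 (adjusted p = 0.395), both with overlapping libraries. The 2 genes together supplied 75.8%, 71.8% and 70.2% of the summed level per kb of exon of the cAMP-hydrolysing genes Pde1a, Pde4a, Pde4c, Pde7a, Pde8a, Pde8b and Pde11a in replicates 1, 2 and 3 of MA-10 and 70.8% to 72.0% in the STARKO1 replicates, and the ranges overlapped. Between them, Pde8a was 56.7%, 43.6% and 46.3% of the pair in MA-10 and 59.4% to 61.9% in STARKO1 cells. Pde1a, a calcium- and calmodulin-dependent enzyme, was next in level (log2 fold change 0.24, adjusted p = 0.308). Pde4a and Pde7a, which are specific for cAMP, were at 2.86 to 7.56 CPM in every library and did not pass the test (log2 fold change 0.39 and 0.29, adjusted p = 0.482 and 0.399). Without MA-10 replicate 1, 4 of the cAMP-hydrolysing genes passed, in a fit where 65.7% of all 12167 genes passed. Their log2 fold changes were 0.97 for Pde8a, 0.43 for Pde1a, 1.08 for Pde4a and 0.63 for Pde7a (adjusted p = 0.000285, 0.0169, 0.00383 and 0.0141). Pde8b did not pass there (log2 fold change 0.05, adjusted p = 0.739). Pde4c and Pde11a, with at most 4 and 11 counts in any library, were removed by the filter on low counts and did not pass without it (adjusted p = 0.459 and 0.856).

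Members of the Pde family that do not act on cAMP included those with the smallest adjusted p values. Pde5a, which hydrolyses cyclic GMP, had 42.8, 38.4 and 43.3 CPM in replicates 1, 2 and 3 of MA-10 and 28.3, 27.3 and 32.8 CPM in the STARKO1 replicates. The libraries within each cell line were close, including MA-10 replicate 1, and STARKO1 libraries were lower (log2 fold change -0.50, SE 0.152, adjusted p = 0.0749). Pde6d encodes a carrier of prenylated proteins and not a hydrolysing enzyme, and in MA-10 cells it had the highest mean level per length of the genes with a Pde symbol. It had 26.0, 34.8 and 29.0 CPM in MA-10 and 19.7, 21.8 and 19.9 CPM in STARKO1 cells, without overlap (log2 fold change -0.55, SE 0.168, adjusted p = 0.0752). Pde12, a mitochondrial enzyme that trims RNA tails, had 27.2, 27.8 and 25.3 CPM in MA-10 and 34.3, 32.5 and 36.3 CPM in STARKO1 cells. Its libraries did not overlap either (log2 fold change 0.36, SE 0.142, adjusted p = 0.118), and Arf4 overlaps it on the opposite strand.

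The EPAC genes both lay higher in every STARKO1 library than in any MA-10 library, as did 21.5% of all genes tested. Rapgef4, which encodes EPAC2, a cAMP-activated exchange factor for Rap GTPases, had 7.62, 5.03 and 6.16 CPM in replicates 1, 2 and 3 of MA-10 and 12.1, 11.0 and 10.3 CPM in the STARKO1 replicates. There was no overlap, and the log2 fold change of 0.82 (SE 0.207, adjusted p = 0.0548) was the nearest to the threshold among the genes that did not pass it. Rapgef4 passed with gene length offsets (adjusted p = 0.0461) and in DESeq2 (adjusted p = 0.00711). Rapgef3, which encodes EPAC1, had 2, 2 and 0 counts in MA-10 and 25, 16 and 6 counts in STARKO1 cells. The filter on low counts removed it from the test. Its STARKO1 mean of 0.785 CPM was 3.38-fold the mean MA-10 floor of 3 counts (0.232 CPM). STARKO1 replicates 1 and 2 carried that mean (1.08 and 0.943 CPM), and replicate 3, at 0.337 CPM, was near the floor. Without that filter Rapgef3 did not pass edgeR's test (adjusted p = 0.0673), and without MA-10 replicate 1, where it was kept, it did (adjusted p = 0.0214).

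Of 6 transcription factor and coactivator genes tested, 1 rose, 1 fell and 4 did not pass edgeR's test, which 9.04% of all genes passed. At an unadjusted p under 0.05 in that test there were 3 of the 6, against 37.6% of all genes. Crtc1 (chromosome 8, 70382355 to 70439580, minus strand), which moves to the nucleus in response to cAMP and coactivates CREB, was counted 211, 87 and 57 times in replicates 1, 2 and 3 of MA-10, or at 12.1, 7.55 and 5.02 CPM. The STARKO1 replicates had 568, 400 and 492 counts, or 24.4, 23.6 and 27.6 CPM. Even the lowest of the STARKO1 libraries lay well above the highest MA-10 library. The log2 fold change was 1.61 (SE 0.316, adjusted p = 0.0315). The related coactivators did not pass the test: Crtc2 had 10.7 to 12.8 CPM in MA-10 and 11.0 to 13.1 CPM in STARKO1 cells (adjusted p = 0.798), and Crtc3 had 24.5, 9.02 and 9.51 CPM in MA-10 and 13.6 to 15.2 CPM in STARKO1 cells (adjusted p = 0.999). Without MA-10 replicate 1, Crtc3 passed with a log2 fold change of 0.73 (adjusted p = 0.00184). Crtc1 made up 16.6%, 14.3% and 11.1% of the CRTC level per kb of exon in MA-10 and 31.6%, 33.6% and 35.2% in STARKO1 cells.

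Crem, the cAMP-responsive element modulator, was counted 62, 65 and 83 times in replicates 1, 2 and 3 of MA-10, or at 3.55, 5.64 and 7.31 CPM. The STARKO1 replicates had 53, 27 and 24 counts, or 2.28, 1.59 and 1.35 CPM. Every STARKO1 library was lower, and the log2 fold change was -1.64 (SE 0.355, adjusted p = 0.0399). One table entry covers all Crem transcripts, so activator and repressor forms such as ICER cannot be told apart, and the transcript Gm6225 overlaps Crem on the opposite strand. Creb1, the founding member of the family, had 53.8, 59.2 and 54.2 CPM in MA-10 and 42.4, 45.8 and 39.3 CPM in STARKO1 cells. Its libraries did not overlap, but the log2 fold change of -0.39 (SE 0.146, adjusted p = 0.104) did not pass and had the opposite sign with scaling by library size alone. Creb3, a membrane-bound factor of the endoplasmic reticulum that is not activated by cAMP, was the most abundant of the 3 per length, with 18.4, 17.3 and 12.6 CPM in MA-10 and 19.1, 20.5 and 25.0 CPM in STARKO1 cells (log2 fold change 0.42, adjusted p = 0.181, and 0.62 with adjusted p = 0.0149 without MA-10 replicate 1). STARKO1 libraries were above MA-10 libraries by a narrow margin, and Gba2 and Tln1 overlap Creb3 on the opposite strand.

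**Figure D4:**
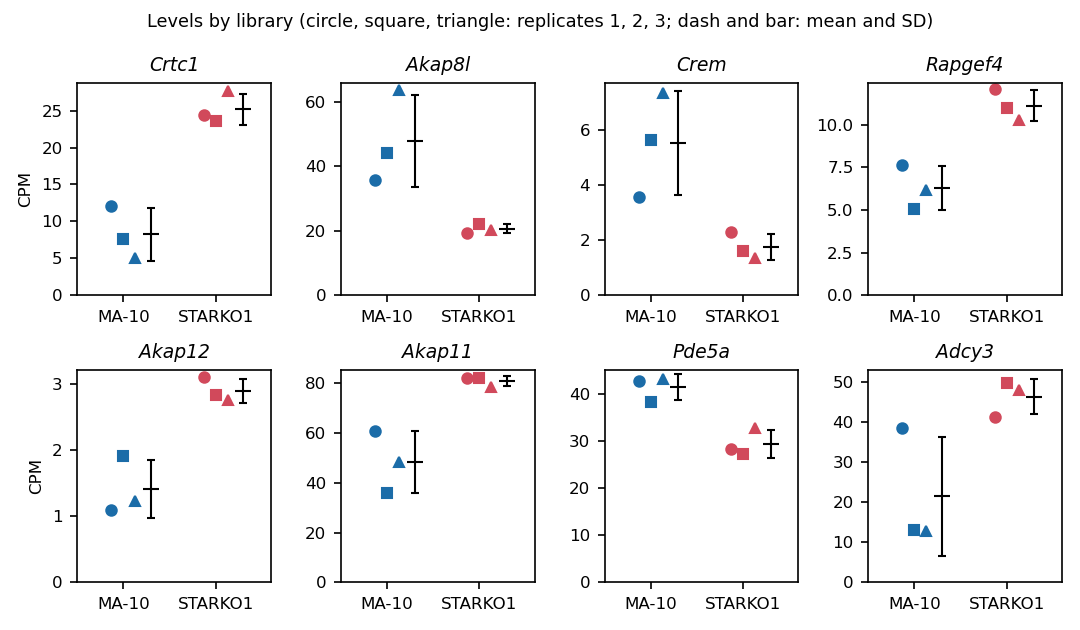
Level in CPM (y axis, from 0) of 8 cAMP pathway genes in each library of MA-10 (blue) and STARKO1 (red), with circle, square and triangle for replicates 1, 2 and 3 and dash and bar for mean and SD. All 8 belong to the genes with an unadjusted p under 0.05 in edgeR's test whose libraries do not overlap (31.7% of all genes tested). Their lack of overlap is therefore no separate result, and only Crtc1, Akap8l and Crem pass the test.

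Each of the 3 called genes passed in 1 of the 6 fits that left out 1 library, the fit without MA-10 replicate 1, and in 5 of 8 other alternatives. Their directions held in every fit. When 1 library at a time was left out, the estimate on the log2 scale ranged from 1.35 to 2.09 for Crtc1, from -1.30 to -0.96 for Akap8l and from -1.81 to -1.38 for Crem, with adjusted p values of up to 0.155, 0.176 and 0.185 when any library other than MA-10 replicate 1 was left out.

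A further list of 101 genes of cAMP signaling without the symbols used above was examined, of which 60 were in the table and 55 were tested. Of these, 2 rose, 4 fell and 49 did not pass (edgeR's quasi-likelihood test), so that 10.9% were called, against 9.04% of all genes, and the median log2 fold change was 0.05. Among the G protein subunits, 2 of 8 were called, both lower, against 9.04% of all genes called. Gng12, a gamma subunit, had 185, 472 and 431 CPM in replicates 1, 2 and 3 of MA-10 and 69.6, 64.5 and 66.0 CPM in the STARKO1 replicates (log2 fold change -2.44, SE 0.364, adjusted p = 0.0145). All STARKO1 libraries were far below all MA-10 libraries, and Gng12 was the only 1 of these 6 genes called in all 8 alternatives with 6 libraries. It was called in 2 of the 6 fits that left out 1 library (adjusted p up to 0.103). Gng10, another gamma subunit, fell by 1.74 on the log2 scale (adjusted p = 0.0483), with 18.2 CPM in MA-10 replicate 1, 58.8 and 48.7 CPM in the other MA-10 libraries and 12.2 to 13.1 CPM in STARKO1 cells. Gnas, the stimulatory alpha subunit that activates the cyclases, was at 538 to 668 CPM in MA-10 and 454 to 478 CPM in STARKO1 cells and did not pass (log2 fold change -0.35, adjusted p = 0.216).

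Of 11 further PKA anchors and related kinases, Map2 rose. For this list and those below, the share of all genes called was 9.04%. MAP2, a microtubule-associated protein that binds the type II regulatory subunit, was encoded at 70.3, 85.5 and 99.0 CPM in replicates 1, 2 and 3 of MA-10 and at 191, 176 and 176 CPM in the STARKO1 replicates (log2 fold change 1.09, SE 0.182, adjusted p = 0.0209). The libraries of the cell lines were well apart. Of 10 further effectors and exporters, the cyclic nucleotide-gated channel gene Hcn3 rose (0.440 to 0.867 CPM in MA-10 and 1.71 to 2.06 CPM in STARKO1 cells, adjusted p = 0.0490) and the cyclic nucleotide exporter Abcc5 fell by 0.75 on the log2 scale (adjusted p = 0.0483). Crebrf, a regulator of the factor CREB3, fell by 1.18 on the log2 scale (adjusted p = 0.0483), the only call among 14 CREB-related genes. Of the 8 alternatives with 6 libraries, Gng10 passed in 3, Map2 in 6, Abcc5 in 2 and Crebrf in 1, and Hcn3 passed in 3 of 7. Of the 6 fits that left out 1 library, Gng10, Hcn3 and Crebrf passed in 1 and Map2 and Abcc5 in 2. Of 11 genes that regulate receptors and G proteins, those of desensitization among them, 0 were called by edgeR, with 2 at an unadjusted p under 0.05, against 37.6% of all genes. DESeq2 called 1 of the 11, Ramp2, against 28.5% of all genes. Ramp2 had 1.2 CPM in MA-10 replicate 1, inside the STARKO1 range of 1.16 to 1.24 CPM. Its values were not whole in 6 libraries, and Vps25 overlaps it on the same strand. The 1 tested receptor that couples to the stimulatory G protein, Crhr1, was not called either.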

How the data were processed

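RNA from 3 untreated MA-10 and 3 untreated STARKO1 samples was sequenced, and the authors deposited 1 table of estimated counts per gene and library. The submitters' processing notes name STAR 2.6.1d, Partek and the mouse build mm10, and the counting program and its strand setting are not given in the sources used here. Values that were not whole (tolerance 0.005) occurred in 36.08% of the 14774 genes, among them 10 of the 42 pathway genes, and such genes may share reads with others. No gene had fewer than 10 counts in total, and library totals were 14114349 to 19530054.

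The estimated counts were rounded and tested with edgeR 4.0.16 under R 4.3.3: filterByExpr, TMM scaling, the quasi-likelihood test of STARKO1 against MA-10 over all 6 libraries, and Benjamini-Hochberg adjustment over all 11939 genes tested (threshold 0.05). The common biological coefficient of variation was 0.291. CPM used TMM-scaled library sizes, and CPM per kb the union of exons of GENCODE M21 genes (GRCm38), matched by symbol and chromosome. Gene positions are those of the deposited table. Their starts matched that annotation for 14617 of the 14660 matched genes, and their ends may lie a base too high. A level of 3 counts per library was taken as the floor, which covers counting error only. The scripts were tested on simulated data.

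Pathway genes, gene lists and roles were chosen with earlier results of these data known. Values in every library are given for genes that passed the test, genes with an unadjusted p under 0.05 whose libraries did not overlap, the gene with the highest level per length in each role, and Lhcgr, Prkaca, Prkar1a, Prkar2b, Creb1 and Crem. Alternatives were DESeq2 1.42.0, upper-quartile and library-size scaling, no filter, at least 10 counts in every library, the replicate number as a block, offsets for gene length (alone and with the block), and leaving out each library.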

Additional observations from a re-analysis of the deposited data

How the results depend on the processing

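Of all genes, 1079 were called. DESeq2 called 3395 (38.6% of them higher in STARKO1 cells, against 47.5%), library-size scaling 330 (63.6% higher), at least 10 counts in every library 695, the replicate block 234, length offsets with that block 243, and leaving out 1 library between 89 and 7990. Of the pathway genes, 3 were called. DESeq2 called 10, library-size scaling 1 (Akap12), length offsets 5, the replicate block 0 (11 at an unadjusted p under 0.05), length offsets with that block 0 (12 unadjusted), and leaving out 1 library between 0 and 26, the latter without MA-10 replicate 1. Of the further cAMP signaling genes, 6 were called. DESeq2 called 16, upper-quartile scaling 3, library-size scaling 2, no filter 3, at least 10 counts in every library 2, the replicate block 1, length offsets with that block 1, and leaving out 1 library between 0 and 39. The cause of these shifts was not tested.

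Single genes were compared between fits for the 21 pathway genes whose values are given in every library. Among these, the sign turned for Creb1 with library-size scaling (log2 fold change 0.06). It turned for Prkaca with upper-quartile scaling (0.01), library-size scaling (0.37), length offsets (0.05), length offsets with the replicate block (0.08) and without MA-10 replicate 2 (0.14, in a leave-one-out range of -0.31 to 0.14). Recomputed log2 fold changes of these 21 genes numbered 294. Of them, 238 kept their direction and side of the threshold, 24 lost the call, 26 gained one and 6 turned. Over all 37 tested pathway genes, library-size scaling alone turned 11 signs. With the replicate block the adjusted p was 0.0615 for Crtc1, 0.0708 for Akap8l and 0.101 for Crem. Same-numbered libraries correlated between -0.0346 and 0.0907, and 2 of 6 libraries correlated best with their own number, so the numbers were not taken to pair the samples. The floors of 0.129 to 0.264 CPM limit what can be said of Adcy7, Akap5, Pde4c, Pde11a and Rapgef3, which were tested only under alternatives.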
